A study of Mus musculus with 4 samples.

Results

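Metallothioneins, their transcription factor MTF-1 and the zinc transporters were examined in alveolar macrophages (AMs), which live in the airspace of the lung and clear particles and surfactant from it. The family comprised 10 genes of the 54532 in the count table, found by their symbols: *Mt1*, *Mt2*, *Mtf1*, *Slc30a1*, *Slc30a5*, *Slc30a7*, *Slc39a1*, *Slc39a6*, *Slc39a8* and *Slc39a10*. It was chosen by the low values of *Mt2* and *Slc30a1* in the tumor libraries described here, so the values and calls of its members in that contrast are a description that supports nothing further, and no p-value is given for them. The mice were wild-type females, per the labels, of a BALB/c background, obtained at 8 to 10 weeks of age. The Control group comprised 2 libraries of AMs from mice without 4T1 tumor inoculation. The Tumor group comprised 2 libraries from mice that carried 4T1 tumors for 2 weeks. 4T1 is a mouse mammary carcinoma line that is injected into the mammary fat pad and spreads to the lung. Each group is labelled as having 2 replicates (n = 2), without saying whether n counts single mice or pools. A sham injection of the control mice is not stated. SDs and standard errors (SEs) therefore measure only the spread between these libraries, which may be technical. The p-values given for genes outside the family rest on the same spread and are not known to cover variation between mice.

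Metallothioneins are small, cysteine-rich proteins that bind zinc and copper in the cytosol. MTF-1 senses free zinc and switches on *Mt1*, *Mt2* and the zinc exporter gene *Slc30a1* through metal response elements, short DNA motifs in their promoters, and glucocorticoids also raise metallothionein transcription. SLC30 transporters (ZnT proteins) move zinc out of the cytosol, to the outside or into organelles, whereas SLC39 transporters (ZIP proteins) move it in. Macrophages use these proteins to withhold zinc from microbes or to load it into phagosomes.

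The promoters of the 3 members with the lowest tumor to control ratios are shown first. They hold matches to the motif that MTF-1 is known to bind, as do windows of some other members. They were picked by the contrast that also chose the family, so their matches support no link to it. Each is the RefSeq window of 300 bases on GRCm38.p6, from 250 bases before to 50 bases after the annotated start, written 5′ to 3′ on the strand of the gene, and capitals mark matches to the core of the metal response element. The core was searched as TGCACNC or TGCGCNC on both strands, so a match on the other strand reads GNGTGCA or GNGCGCA. The *Mt2* window was chr8:94172368-94172667 on the plus strand, the *Mt1* window chr8:94178839-94179138 on the plus strand, and the *Slc30a1* window chr1:191906531-191906830 on the plus strand.
Mt2: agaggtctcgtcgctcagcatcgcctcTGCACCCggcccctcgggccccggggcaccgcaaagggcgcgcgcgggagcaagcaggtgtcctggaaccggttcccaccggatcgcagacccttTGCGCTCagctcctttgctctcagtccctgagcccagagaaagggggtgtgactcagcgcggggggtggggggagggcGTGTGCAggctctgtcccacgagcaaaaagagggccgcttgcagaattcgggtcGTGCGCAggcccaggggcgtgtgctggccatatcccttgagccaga
Mt1: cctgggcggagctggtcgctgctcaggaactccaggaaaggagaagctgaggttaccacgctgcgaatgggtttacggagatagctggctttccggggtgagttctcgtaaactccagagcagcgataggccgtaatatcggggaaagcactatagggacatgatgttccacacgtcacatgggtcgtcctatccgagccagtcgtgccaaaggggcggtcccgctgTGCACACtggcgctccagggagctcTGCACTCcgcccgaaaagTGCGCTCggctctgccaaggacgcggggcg
Slc30a1: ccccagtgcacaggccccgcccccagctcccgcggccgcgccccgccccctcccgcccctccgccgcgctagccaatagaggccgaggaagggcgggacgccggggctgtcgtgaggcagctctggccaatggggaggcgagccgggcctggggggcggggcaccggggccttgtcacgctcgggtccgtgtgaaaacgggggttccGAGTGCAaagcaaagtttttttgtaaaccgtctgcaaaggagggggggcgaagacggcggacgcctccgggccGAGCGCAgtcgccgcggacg

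The *Mt2* window held 4 core matches, which began at positions -223, -128, -50 and 4 from the start. In the *Mt1* window 3 matches began at -23, 2 and 20, and in the *Slc30a1* window 2 matches began at -43 and 30. Among the 32851 windows of the RefSeq table, 25.7% held at least 1 match, 7.11% at least 2, 1.97% at least 3 and 0.517% at least 4. A window was found for 9 of the 10 members, 11 windows in all, and *Slc39a6* had none. *Slc30a5*, which encodes an exporter of the early secretory pathway, held 1 match. Of the *Slc39a8* windows, 1 held a match and the other held none. No match to these letters was found in the windows of *Mtf1*, *Slc30a7*, *Slc39a1* and *Slc39a10*. The core of the antioxidant response element, searched as TGACNNNGC on both strands, occurred once each in the windows of *Mt2*, *Slc30a1*, *Slc30a5* and *Slc39a1* and in 1 of the *Slc39a8* windows, against 12.4% of all windows. It overlapped no match to the metal response element core in the windows of the members. These matches describe letters in a window and were not tested as binding sites.

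**Figure D1:**
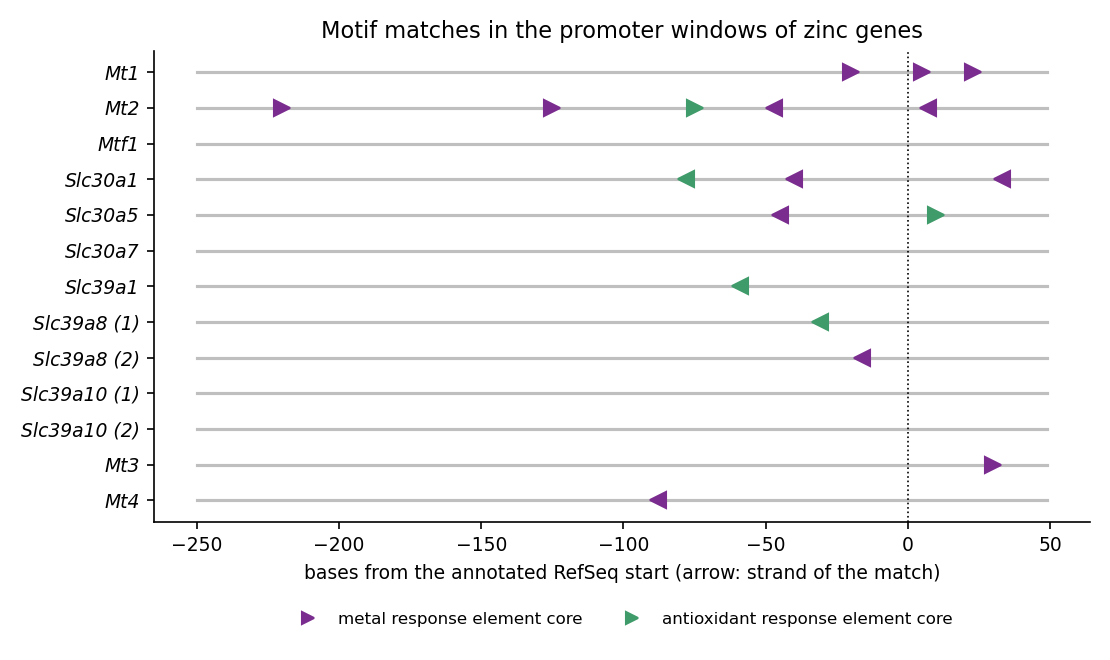
Positions of metal response element cores (purple) and antioxidant response element cores (green) in the promoter windows of the zinc genes that have one, in bases from the annotated RefSeq start (dotted line). Arrowheads point along the strand of the match. The *Mt2*, *Mt1* and *Slc30a1* windows held 4, 3 and 2 metal response element cores.

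The annotated start of *Mt1* lay 229 bases before the start codon, and that of *Mt2* 184 bases before it in the principal GENCODE transcripts. Matches were therefore counted in the first 250 bases of each principal transcript as well, a stretch that overlaps the windows in part. There, *Mt1* held 4 matches, 2 of them past its window, *Mt2* held 3, all past its window, and *Slc30a1* held 1, inside its window. Of the other metallothionein genes, both at or near 0 counts, *Mt3* held 3 and *Mt4* held none. The members *Mtf1*, *Slc30a7*, *Slc39a1*, *Slc39a6*, *Slc39a8* and *Slc39a10* held none, and *Slc30a5*, whose principal transcript carries a lower-ranked tag in the annotation, was not counted. Of 17180 principal transcripts, 24.6% held at least 1 match in this stretch, 1.12% at least 3 and 0.221% at least 4.

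Total counts per library ranged from 16167147 to 19205737, and a value of 3 counts or fewer, equal to 0.153 to 0.19 CPM, was treated as the floor. CPM, the unit of level used throughout, is the count scaled to a common library total, with library sizes set by trimmed mean of M values (TMM) scaling. Log2 fold changes and SEs came from the quasi-likelihood fit of edgeR over the 14256 genes with enough counts, and a gene was counted as called when its Benjamini-Hochberg adjusted p over those genes was under 0.05. Of these genes, 53.8% were called, 24.8% as lower and 29% as higher in the tumor libraries. The AM identity of the libraries was checked with 14 markers. None of them was at 0 in any library, and their summed level was 18340 and 18440 CPM in the control libraries and 13100 and 13250 CPM in the tumor libraries, with 12 lower and 1 higher. Markers of granulocytes and hepatocytes were higher in the tumor libraries. All 10 neutrophil markers rose, from 43.7 and 44.1 CPM summed to 2497 and 2505 CPM, with *Elane* and *Padi4* at 0 in the controls. All 5 eosinophil markers rose, from 0.480 and 0.507 CPM to 2224 and 2204 CPM, with *Prg3* at 0 in the controls. The 6 basophil and mast cell markers rose from 0.267 and 0.317 CPM to 75.0 and 64.0 CPM, with *Mcpt8*, *Prss34*, *Ms4a2* and *Fcer1a* at 0 in the controls. The 10 hepatocyte markers rose from 0.160 and 0.190 CPM to 708.4 and 711.2 CPM, and 8 of them, *Alb*, *Ahsg*, *Ttr*, *Apob*, *Fgb*, *Fga*, *Hpd* and *Tat*, were at 0 in both controls. Monocyte and interstitial macrophage markers summed to 179.5 and 189.7 CPM against 205.8 and 205.7 CPM, with 3 higher and 4 lower of 8. Lung epithelium markers summed to 139.7 and 143.8 CPM against 71.7 and 71.2 CPM, with 4 lower of 6. For AMs isolated for imaging the study used a CD45+ CD11b- CD11c+ SiglecF+ gate, which would leave out cells that carry CD11b, such as neutrophils, and whether the sequenced cells passed it is not stated outright. The part of these other cells in the values of the zinc genes, or of any other gene given as higher or lower, was not tested. For this reason the log2 fold changes of the members are also given after scaling on AM markers, that is, with library sizes set so that the 14 AM markers did not change on balance. Single markers differed widely, with log2 fold changes under TMM scaling from -2.13 (*Fabp4*) to 0.96 (*Ear1*). After scaling on AM markers 6 of the 14 were still called higher and 6 lower, so it gives no fixed reference for AMs. Over all genes the median log2 fold change was 0.02 with TMM scaling and 0.48 with this scaling.

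Of the 10 members, all of which passed the filter on low counts, 6 were called lower and 1 higher, and 3 did not pass the threshold. Over all genes tested 24.8% were called lower and 29% higher. Their median log2 fold change was -0.33, beside 0.02 over all genes tested, and after scaling on AM markers it was 0.13, with 3 members called lower and 5 higher, where 72.7% of all genes tested were called, 5.56% as lower and 67.1% as higher. The control and tumor libraries did not overlap for 7 members, nor did they for 10700 of the 14256 genes tested. The members lower by at least 2-fold were *Mt1*, *Mt2* and *Slc30a1*, and these stayed lower under both scalings.

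**Figure D2:**
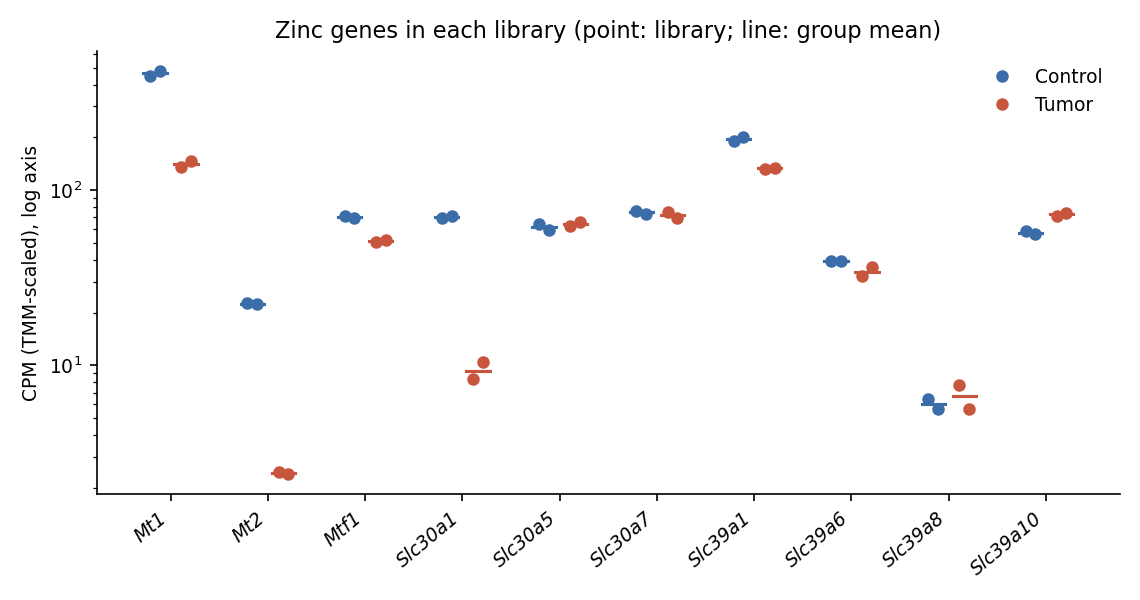
Level of each of the 10 zinc genes in CPM (TMM-scaled, log axis), where each point is a library and each short line the group mean (blue, Control, 2 libraries; red, Tumor, 2 libraries). The widest gaps are those of *Mt2*, 22.4 against 2.44 CPM, and *Slc30a1*, 70.1 against 9.36 CPM, and the libraries of *Slc30a5*, *Slc30a7* and *Slc39a8* overlap between the groups.

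*Mt1* and *Mt2* encode the metallothioneins that most cells make, and they lie side by side on the plus strand of chromosome 8 (GRCm38). *Mt1* (ENSMUSG00000031765, chr8:94179082-94180327) stood at 449.5 and 478.4 CPM in the control libraries and at 135.6 and 145.6 CPM in the tumor libraries. Both tumor libraries were far below both controls. The mean was 464.0 ± 20.5 CPM (SD, n = 2) in the controls and 140.6 ± 7.08 CPM (SD, n = 2) in the tumor group, that is, 3.30-fold lower, with a log2 fold change of -1.72 ± 0.036 (SE), or -1.26 after scaling on AM markers.

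*Mt2* (ENSMUSG00000031762, chr8:94172664-94173568) was counted 423 and 352 times in the control libraries and 43 and 47 times in the tumor libraries. In CPM these were 22.6 and 22.3 against 2.48 and 2.40. The libraries of each group lay close together and the groups were far apart. The means were 22.4 ± 0.186 and 2.44 ± 0.062 CPM (SD, n = 2 each), that is, 9.20-fold lower in the tumor group. The log2 fold change was -3.20 ± 0.15 (SE), and -2.74 after scaling on AM markers.

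*Mt1* gave 19.9 and 21.5 counts for each count of *Mt2* in the controls, against 54.6 and 60.8 in the tumor group. This ratio within a library does not depend on scaling, and it was higher in both tumor libraries than in either control. Summed over both genes, the metallothionein level was 472.1 and 500.7 CPM in the controls and 138.1 and 148.0 CPM in the tumor libraries, a 3.40-fold lower mean (2.47-fold after scaling on AM markers). The reading frames of *Mt1* and *Mt2* are of equal length, 186 bases or 61 codons before the stop, and 20 of those codons in each encode cysteine. They are identical at 148 positions (79.6%), and the longest run that the transcripts share is 20 bases. The handling of multimapping reads is not stated, so reads could in principle be shared between them.

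The surroundings of the locus were also counted. *Mt2* ends 5513 bases before *Mt1* begins. *Mt3*, the brain metallothionein, lies 18517 bases before *Mt2* and was counted 0 and 0 times in the controls and 2 and 9 times in the tumor libraries. *Mt4*, the metallothionein of squamous epithelium, was at 0 counts in all 4 libraries, and the floor of 3 counts applies to it. Neither gene passed the filter. The flanking gene *Bbs2* stood at 7.36 and 6.34 CPM in the controls and at 6.24 and 6.88 CPM in the tumor libraries, so the groups overlapped. On the other flank, *Nup93* stood at 33.3 and 32.5 CPM in the controls and at 27.6 and 27.7 CPM in the tumor libraries, which did not overlap. The antisense gene *Gm45774* overlaps an exon of *Mt2* and was counted 29 and 9 times in the controls and 4 and 5 times in the tumor libraries. Whether counting used strand is not stated, so its reads and those of *Mt2* cannot be told apart with certainty.

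*Mtf1* (ENSMUSG00000028890, chr4:124802104-124849800, plus strand), which encodes the zinc sensor and transcription factor of the family, stood at 71.2 and 69.4 CPM in the controls and at 50.9 and 51.9 CPM in the tumor libraries. The groups did not overlap. The means were 70.3 ± 1.26 and 51.4 ± 0.748 CPM (SD, n = 2 each), with a log2 fold change of -0.45 ± 0.058 (SE), which became 0.0080 after scaling on AM markers and was then not called. The gene overlaps an exon of *1110065P20Rik* on the other strand, which was counted 44 to 83 times in these libraries.

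*Slc30a1* (ENSMUSG00000037434, chr1:191906767-191913247, plus strand) encodes ZnT1, the exporter that carries zinc across the plasma membrane. Its reads numbered 1299 and 1119 in the controls but 144 and 204 in the tumor libraries, that is, at 69.3 and 70.9 CPM against 8.32 and 10.4 CPM. The control libraries nearly coincided, and both tumor libraries were far below them. The means were 70.1 ± 1.13 and 9.36 ± 1.47 CPM (SD, n = 2 each), a 7.49-fold lower level, with a log2 fold change of -2.90 ± 0.091 (SE), or -2.44 after scaling on AM markers. Its antisense neighbour *1700034H15Rik* was at 0 to 3 counts.

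*Slc30a5* and *Slc30a7* encode ZnT5 and ZnT7, which load zinc into the early secretory pathway for enzymes that need it. *Slc30a5* (ENSMUSG00000021629, chr13:100802648-100833427, minus strand) stood at 64.1 and 59.2 CPM in the controls and at 62.6 and 66.0 CPM in the tumor libraries, so the groups overlapped. Its log2 fold change was 0.06 ± 0.060 (SE) and did not pass the threshold. *Slc30a7* (ENSMUSG00000054414, chr3:115938973-116007406, minus strand) stood at 76.4 and 73.3 CPM in the controls and at 74.8 and 69.2 CPM in the tumor libraries, which overlapped as well. Its log2 fold change was -0.06 ± 0.055 (SE), not past the threshold. After scaling on AM markers the values were 0.52 for *Slc30a5* and 0.40 for *Slc30a7*, both then called higher.

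Per kilobase of the gene length in the deposited table, *Slc30a1* made up 46.8% ± 1.52 (SD, n = 2) of the summed level of the 3 exporter genes in the controls and 10.4% ± 1.48 in the tumor libraries. With the length of the principal GENCODE transcript instead, these shares were 32.6% ± 1.42 and 5.94% ± 0.815. The summed level of the 3 genes was 28.9 and 28.2 CPM per kilobase in the controls and 16.9 and 17.3 CPM per kilobase in the tumor libraries, a 1.67-fold lower mean. This ratio was 1.37 with the principal transcript lengths, 1.22 (table lengths) after scaling on AM markers, and 0.995 (principal transcript lengths) with both changes, so the lower sum depended on these choices.

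*Slc39a1* encodes ZIP1, an importer of the plasma membrane found in most cells. *Slc39a1* (ENSMUSG00000052310, chr3:90248172-90253612, plus strand) stood at 190.2 and 201.6 CPM in the controls and at 132.5 and 133.7 CPM in the tumor libraries. Both tumor values were below both control values. The means were 195.9 ± 8.04 and 133.1 ± 0.854 CPM (SD, n = 2 each), and the log2 fold change of -0.56 ± 0.038 (SE) became -0.10 after scaling on AM markers and was then not called.

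*Slc39a6* and *Slc39a10* encode ZIP6 and ZIP10, closely related importers that can pair with each other. *Slc39a6* (ENSMUSG00000024270, chr18:24579881-24603817, minus strand) stood at 39.3 and 39.5 CPM in the controls and at 32.2 and 36.4 CPM in the tumor libraries. The groups did not overlap, but the tumor libraries differed from each other by more than the second of them differed from the controls. The log2 fold change was -0.20 ± 0.078 (SE). It was called in the main fit, lost the call in 6 of 12 alternatives, with values of -0.21 without control replicate 1, -0.22 without control replicate 2 and -0.12 without tumor replicate 1, and became 0.26 after scaling on AM markers, where it was called higher. *Slc39a10* (ENSMUSG00000025986, chr1:46807544-46892852, minus strand) was the member called higher, at 58.4 and 56.1 CPM in the controls and 71.5 and 74.4 CPM in the tumor libraries. The means were 57.2 ± 1.62 and 73.0 ± 1.99 CPM (SD, n = 2 each), a 1.27-fold higher level, with a log2 fold change of 0.35 ± 0.057 (SE), or 0.81 after scaling on AM markers.

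*Slc39a8* encodes ZIP8, an importer of zinc and manganese known to be induced by inflammatory signals in macrophages. *Slc39a8* (ENSMUSG00000053897, chr3:135825279-135888572, plus strand) was counted 121 and 89 times in the controls and 134 and 111 times in the tumor libraries. In CPM these were 6.46 and 5.64 against 7.74 and 5.66, so the groups overlapped. The log2 fold change was 0.14 ± 0.18 (SE), not past the threshold, and -0.11 without tumor replicate 1. After scaling on AM markers it was 0.60 and called higher.

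**Figure D3:**
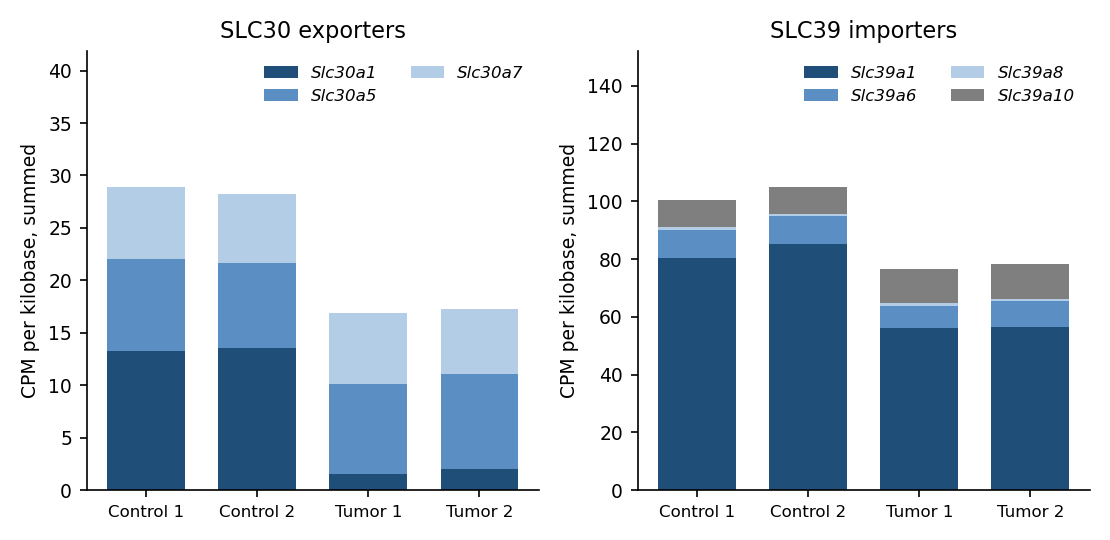
Summed level of the exporter members (left) and importer members (right) in each library, in CPM per kilobase of the gene length in the deposited table, with the contribution of each gene stacked. The *Slc30a1* segment is smaller in both tumor libraries (9.39% and 11.5% of the exporter sum) than in the controls (45.8% and 47.9%), while the *Slc39a1* segment is the largest of the importer sum in all 4 libraries.

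The 4 importer genes summed to 102.7 ± 3.10 CPM per kilobase in the controls and 77.55 ± 1.23 in the tumor libraries (SD, n = 2 each), but after scaling on AM markers the tumor sum was 1.04-fold the control sum. *Slc39a1* made up 80.7% ± 0.879 of this sum in the controls and 72.6% ± 0.684 in the tumor libraries. On the scale of CPM per kilobase, the order of the members in the controls was *Mt1* (372.4 ± 16.4), *Slc39a1* (82.9 ± 3.40), *Mt2* (38.2 ± 0.316), *Slc30a1* (13.4 ± 0.216), *Slc39a6* (9.68), *Slc39a10* (9.39), *Slc30a5* (8.45), *Mtf1* (7.89), *Slc30a7* (6.74) and *Slc39a8* (0.789). The libraries of neighbours in this order did not overlap. In the tumor libraries *Mt2*, at 4.15 ± 0.106, went from place 3 to place 8, and *Slc30a1*, at 1.78 ± 0.281, from place 4 to place 9. *Mt1* (112.8 ± 5.69) and *Slc39a1* (56.3 ± 0.362) kept places 1 and 2. *Slc39a10* followed at 11.97, then *Slc30a5* at 8.82 and *Slc39a6* at 8.42, whose libraries overlapped, and *Slc30a7* at 6.48. With principal transcript lengths the control level of *Mt1* was 845.1 CPM per kilobase, that of *Slc30a5* 19.4 and that of *Slc39a8* 1.71, each over 2 times the value above. *Slc30a5* then stood above *Slc30a1* in the controls, and *Slc30a1* went from place 5 to place 10, where its tumor libraries overlapped those of *Slc39a8*.

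Of the 24 other zinc genes, listed by family and role, 16 passed the filter. Of these, 10 were called lower and 2 higher, and their median log2 fold change was -0.22, but after scaling on AM markers 1 was called lower and 9 higher, with a median of 0.24. Over all genes 24.8% were called lower and 29% higher, and 5.56% and 67.1% after scaling on AM markers, with a median of 0.48. *Slc39a14*, which encodes ZIP14, the close relative of ZIP8 that carries zinc, iron and manganese, was the gene called lower under both scalings. It was counted 2062 and 1756 times in the controls and 825 and 988 times in the tumor libraries, at 110.6 ± 0.889 against 48.997 ± 1.92 CPM (SD, n = 2 each), with a log2 fold change of -1.17 ± 0.052 (SE, adjusted p = 3.24e-17 in edgeR's quasi-likelihood test), or -0.71 after scaling on AM markers. *Slc39a4*, which encodes the zinc importer of the gut epithelium, was higher but low in number, with 11 and 7 counts in the controls and 36 and 28 in the tumor libraries. Its log2 fold change was 1.73 ± 0.44 (SE, adjusted p = 0.0014 in the same edgeR test). *Slc30a4*, which encodes an exporter into vesicles, was counted 9 and 14 times in the controls and 34 and 45 times in the tumor libraries, and rose by 1.66 ± 0.40 on the log2 scale (SE, adjusted p = 0.000878 in the same edgeR test).

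The other SLC39 genes called lower were *Slc39a2* (log2 fold change -0.59), *Slc39a7* (-0.80), *Slc39a9* (-0.36), *Slc39a11* (-0.26) and *Slc39a12* (-0.57), but after scaling on AM markers none of these was called lower and *Slc39a11* was called higher, at 0.20. *Slc39a3*, *Slc39a5* and *Slc39a13* did not pass the threshold, though *Slc39a3* (0.68) and *Slc39a13* (0.40) were called higher after scaling on AM markers. Among the exporters *Slc30a6* (-0.39) and *Slc30a9* (-0.23) were called lower, and after scaling on AM markers *Slc30a6* was at 0.07 and not called, while *Slc30a9* was at 0.23 and called higher. *Slc30a2*, *Slc30a3*, *Slc30a8* and *Slc30a10* did not pass the filter, and of these *Slc30a2* alone exceeded the floor, with 8 counts, all of them from tumor replicate 1. *Trpm7*, a channel that lets zinc in, and *Mcoln1*, a lysosomal channel that releases it, had log2 fold changes of -0.21 and -0.19, both called lower, which became 0.25 and 0.26, both called higher, after scaling on AM markers.

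**Figure D4:**
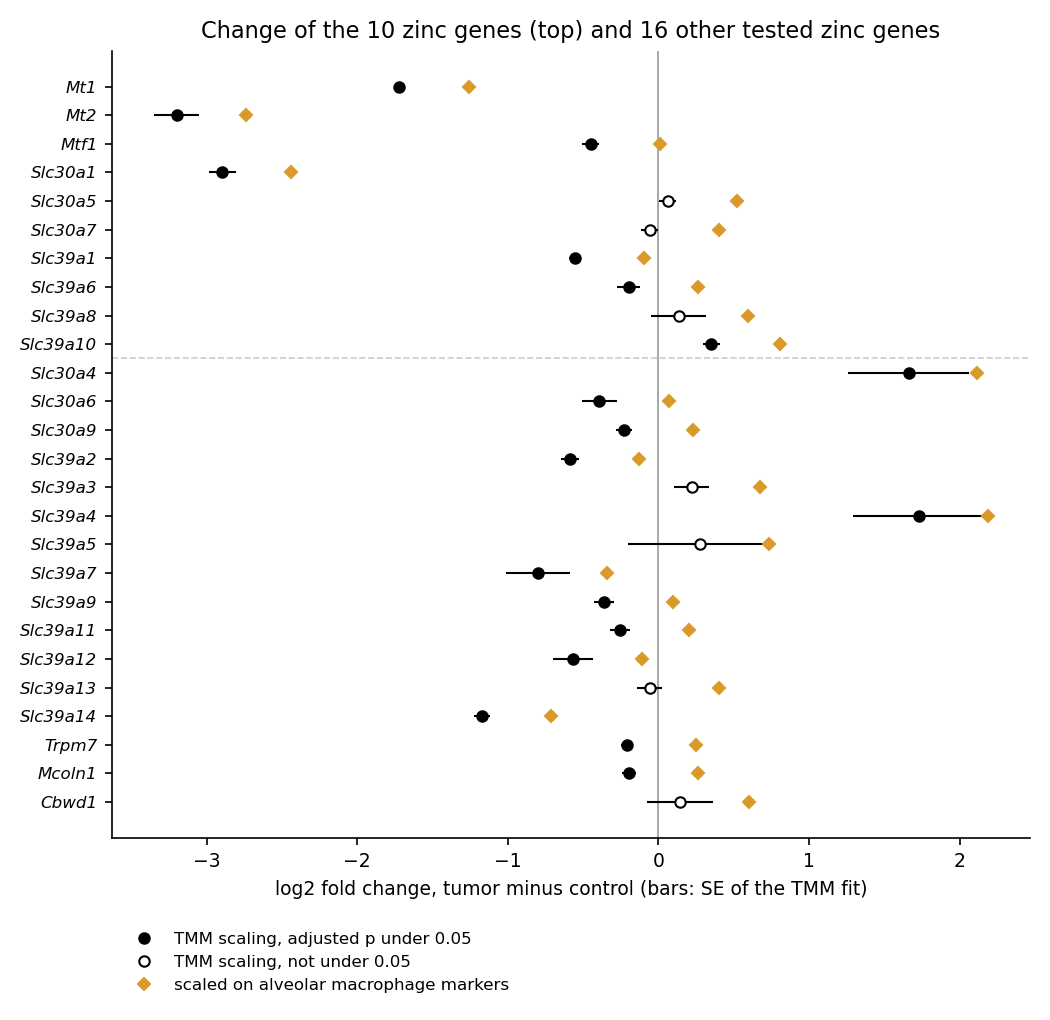
Log2 fold change (tumor minus control) of the 10 zinc genes and the 16 other tested zinc genes, with SE bars for TMM scaling (circles, filled where the adjusted p was under 0.05) and diamonds for scaling on AM markers. Of the genes called under both scalings, *Mt1*, *Mt2*, *Slc30a1* and *Slc39a14* lie below 0 on both and *Slc39a10*, *Slc30a4* and *Slc39a4* above 0 on both, whereas *Slc39a6*, *Slc30a9*, *Slc39a11*, *Trpm7* and *Mcoln1* have circles below 0 and diamonds above it.

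Genes outside the transporter families that MTF-1 is known to act on did not share one direction. The list does not separate genes that MTF-1 raises from those that it lowers, and MTF-1 activity was not tested. All 6 were tested, with 2 called higher and 2 lower and a median log2 fold change of -0.10 (0.35 after scaling on AM markers, with 3 higher and 1 lower), beside shares over all genes of 29% higher and 24.8% lower (67.1% and 5.56% after scaling on AM markers, with a median of 0.48). *Csrp1*, which encodes a LIM domain protein, rose from 27.8 ± 0.068 to 69.8 ± 2.53 CPM (log2 fold change 1.33 ± 0.068, edgeR adjusted p = 8.77e-16), and *Ndrg1*, a gene of hypoxia and metal stress, from 8.03 ± 1.01 to 18.9 ± 1.93 CPM (log2 fold change 1.24 ± 0.13, edgeR adjusted p = 4.68e-09). Both rose in the libraries in which the granulocyte and hepatocyte markers rose, whose part was not tested. *Gclc*, which encodes the catalytic subunit of the rate-limiting enzyme of glutathione synthesis, was lower, with a log2 fold change of -0.66 ± 0.063, or -0.20 after scaling on AM markers. *Selenow* was lower at -0.30 ± 0.074, but was 0.16 and not called after that scaling.

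Glucocorticoids are a hormonal input to metallothionein transcription, and 8 genes that they are known to raise were counted. This list was chosen with earlier results of these data known, so its counts and p-values describe these libraries and support nothing further. All 8 were called higher, where 29% of all genes were, with a median log2 fold change of 1.36 against 0.02 over all genes. After scaling on AM markers all 8 were again called higher, where 67.1% of all genes were, with a median of 1.82 against 0.48. *Per1*, a clock gene with a glucocorticoid response element, stood at 163.5 ± 1.06 CPM in the controls and 551.8 ± 11.9 CPM in the tumor libraries. *Fkbp5*, which encodes a co-chaperone of the glucocorticoid receptor, rose from 70.1 ± 0.136 to 185.6 ± 3.97 CPM. *Zbtb16*, at 3 and 3 counts in the controls and 184 and 190 in the tumor libraries, was at least 50.9-fold higher against the floor of 3 counts per library. *Ddit4*, a stress gene that restrains mTORC1, rose from 0.637 ± 0.0046 to 29.2 ± 4.24 CPM. The adjusted p in the edgeR test was 4.12e-27 for *Per1*, 3.39e-21 for *Fkbp5* and 2.92e-19 for *Ddit4*. *Tsc22d3*, *Dusp1*, *Klf9* and *Sgk1* had log2 fold changes of 1.31, 1.04, 0.56 and 0.20. The libraries in which these genes stood higher are those in which the summed neutrophil markers were at 2497 and 2505 CPM, the eosinophil markers at 2224 and 2204 CPM and the hepatocyte markers at 708.4 and 711.2 CPM, against at most 44.1, 0.507 and 0.190 CPM in the controls. The part of those cells in the rise of this list was not tested.

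Calprotectin is the zinc-binding protein that neutrophils release, made of the products of *S100a8* and *S100a9*. The control level of *S100a8* was 3.90 ± 0.141 CPM, and the tumor level 514.2 ± 13.1 CPM (SD, n = 2 each). For *S100a9* these levels were 0.669 ± 0.040 and 1086 ± 22.4 CPM. Their log2 fold changes were 7.04 ± 0.057 and 10.66 ± 0.061 (SE), with adjusted p of 1.64e-34 and 7.57e-38 in edgeR's quasi-likelihood test. They moved with the neutrophil markers, all 10 of which rose. In bulk libraries, fewer cells of a type and less RNA per cell cannot be told apart, and this holds for every level given here.

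**Figure D5:**
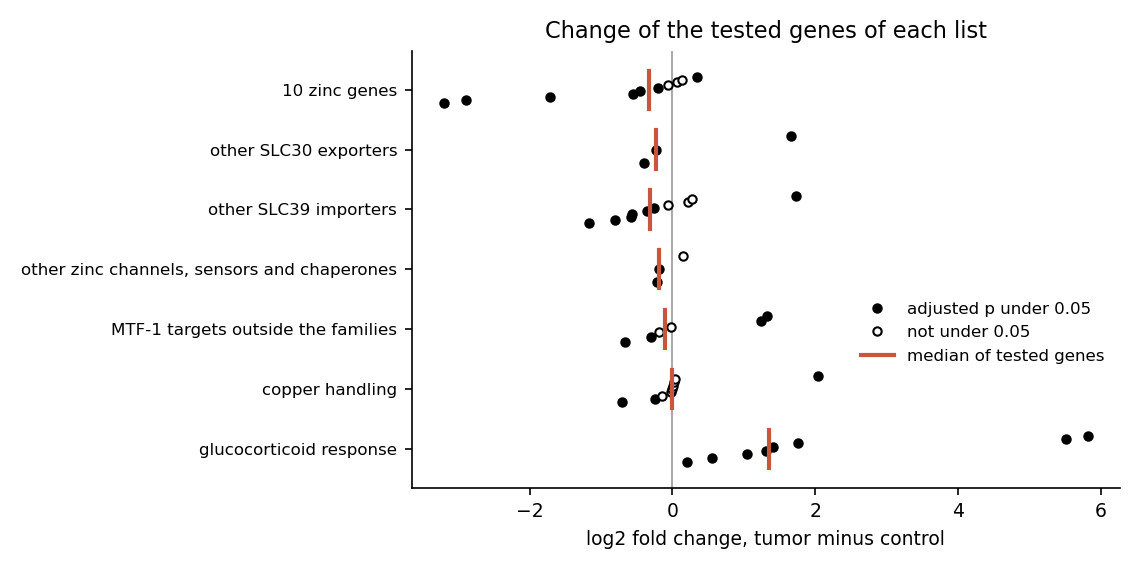
Log2 fold change (tumor minus control, TMM scaling) of the tested genes of each list, 1 point per gene (filled, adjusted p under 0.05), with the median as a red bar. The 10 zinc genes have a median of -0.33 and the glucocorticoid response genes one of 1.36; after scaling on AM markers these medians were 0.13 and 1.82.

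The pattern of *Mt2* and *Slc30a1* over the 4 libraries was compared with that of every tested gene by the Euclidean distance between log2 CPM values centred on their own mean. The gene closest to both was *Zc3h12c*, a member of the Regnase family of RNA-binding proteins, at a distance of 0.181 from *Mt2* and 0.213 from *Slc30a1*. It stood at 394.2 and 384.7 CPM in the controls and 48.45 and 50.05 CPM in the tumor libraries. Next to *Mt2* came *Pla2g2d* at 0.287, a secreted phospholipase gene, and the predicted gene *Gm37069* at 0.363. Next to *Slc30a1* came *Gm37069* at 0.222 and *Flrt3* at 0.287, which encodes an adhesion protein. *Pla2g2d* and *Gm37069* were under 4 CPM in every library. With 4 libraries in 2 groups, likeness mostly records the size of the difference between groups.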

How the data were processed

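RNA-seq was performed on AMs of 2 Control and 2 Tumor libraries, grouped by the titles in the labels. The deposited values are counts per gene, which the authors did not normalize. TRIzol extraction and a NEBNext Ultra kit were used upstream. Paired-end reads were aligned with HISAT2 2.0.5 and counted with featureCounts. The submitters' processing notes also name DESeq2. Genome build, annotation, strandedness and the handling of multimapping reads are not given in the sources used here. Coordinates of all members were identical to those of GENCODE M21 (GRCm38). A gate (CD45+ CD11b- CD11c+ SiglecF+) is given for AMs isolated for imaging, not in so many words for these libraries.

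The members and lists were chosen with earlier results of these data known, so the counts and p-values of the lists are a description too. The fit used edgeR 4.0.16 in R 4.3.3 (TMM scaling, filterByExpr with a minimum count of 10, glmQLFit and glmQLFTest with group alone, Benjamini-Hochberg adjustment over 14256 genes, threshold 0.05). The SE is the size of the log2 fold change over the root of F. With 2 libraries per group, the fit has 2 residual degrees of freedom and borrows the spread of other genes, with a median of 24.2 prior degrees of freedom. The coefficient of variation between replicates in the fit was 0.0303, and very small p-values reflect this narrow spread. The test was run on simulated counts with 200 changed genes, of which 99% were recovered at 2-fold and 100% at 4-fold. These genes were not low in counts, went up and down equally often, and were given the narrow spread of these libraries. The recovery therefore checks the code and does not measure the reliability of the calls here. Named beside the members were the other metallothioneins and, from each other list, up to 4 genes with an adjusted p under 0.05, a log2 fold change of at least 1 and at least 10 counts. Genes named beyond this rule were named after their values were seen. Alternatives were DESeq2 size factors, total counts, AM-marker scaling, no filter, 10 counts in every library, DESeq2 1.42.0, limma-voom (limma 3.58.1), the replicate number as a block, a log2 fold change of at least 1, each library left out and other transcript lengths; principal transcript lengths and AM-marker scaling of summed levels were chosen after seeing the data.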

Additional observations from a re-analysis of the deposited data

How the results depend on the processing

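*Mt1*, *Mt2*, *Slc30a1* and *Slc39a10* kept their direction and their side of the threshold in all 12 alternatives run for each, and so did *S100a8*, *S100a9*, *Cox17*, *Ddit4*, *Fkbp5*, *Per1*, *Zbtb16*, *Csrp1*, *Ndrg1*, *Slc30a4*, *Slc39a14* and *Slc39a4* in those run for them. The other zinc, copper and response genes named were run one by one with AM-marker scaling alone, where *Selenow*, *Slc39a11* and *Slc31a1* were among those that changed their call. The log2 fold change ranged from -1.78 to -1.26 for *Mt1*, from -3.23 to -2.74 for *Mt2*, from -3.08 to -2.44 for *Slc30a1* and from 0.30 to 0.81 for *Slc39a10*. With a log2 fold change of at least 1 required, which by construction removes small changes, 3 members instead of 7, 3 other zinc genes instead of 12, 11 metal and hormone response genes instead of 17 and 2268 genes overall instead of 7671 were counted. Scaling on AM markers turned the direction of *Mtf1* (0.0080), *Slc30a7* (0.40) and *Slc39a6* (0.26), called 10363 genes overall and raised the share of higher calls from 53.9% to 92.3%; total counts gave 62.6% and turned *Slc30a7* to 0.0066. With single libraries left out, *Slc30a5* lay between -0.015 (without control replicate 2) and 0.11, and *Slc39a8* between -0.11 (without tumor replicate 1) and 0.35. When single libraries were left out, the lone library of a group being assumed to vary like the other group, the calls were 6 to 7 members, 11 to 13 other zinc genes, 16 to 17 response genes and 6515 to 7470 genes overall. With the replicate number as a replicate block, 7 members, 12 other zinc genes, 17 response genes and 7446 genes were called; the replicate numbers did not pair the samples (correlation of deviations -0.0035). DESeq2's Wald test called 5858 genes. The precision of *Mt2*, *Slc39a8*, *Slc39a4* and *Slc30a4* is limited by their low counts, and 2 libraries per group limit all values. No permutation of 2 against 2 libraries can reach the threshold.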

Other observations

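Copper is the other metal that metallothioneins bind in cells. Of 10 copper handling genes, 9 passed the filter and *Sco2* was at 0 counts in all 4 libraries. Under TMM scaling 1 of the 9 was called higher and 2 lower, with a median log2 fold change of -0.0081, whereas after scaling on AM markers 7 were called higher and 1 lower, with a median of 0.45. Over all genes 29% were called higher and 24.8% lower, with a median of 0.02, and after scaling on AM markers 67.1% and 5.56%, with a median of 0.48. *Cox17*, which encodes the chaperone that hands copper to cytochrome c oxidase, was counted 35 and 36 times in the controls and 166 and 145 times in the tumor libraries. Its level rose from 2.07 ± 0.293 to 8.49 ± 1.55 CPM (SD, n = 2 each), with a log2 fold change of 2.03 ± 0.22 (SE, adjusted p = 5.02e-09 in edgeR's quasi-likelihood test). Neutrophil (2497 and 2505 CPM summed), eosinophil (2224 and 2204 CPM) and hepatocyte (708.4 and 711.2 CPM) markers rose in the same tumor libraries, and their part in the *Cox17* value was not tested. *Atp7a*, which encodes the copper pump of the Golgi and phagosome, was lower under both scalings, at 136.7 ± 0.171 against 84.0 ± 2.97 CPM and a log2 fold change of -0.70 ± 0.044 (SE, adjusted p = 7.51e-14 in the same edgeR test), or -0.24 after scaling on AM markers. *Slc31a1*, the copper importer gene, had a log2 fold change of -0.24 ± 0.089, which became 0.22 after scaling on AM markers. The copper chaperone genes *Atox1* and *Ccs* had log2 fold changes of 0.04 ± 0.063 and -0.02 ± 0.10 and did not pass the threshold under TMM scaling, but both were called higher after scaling on AM markers, at 0.50 and 0.44.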
